A study of Mus musculus with 50 samples.

Results

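The genes described here encode 7 subunits of the GABA-A receptor, Gabra2, Gabra3, Gabra4, Gabra5, Gabrb1, Gabrb2 and Gabrd, read probe by probe on the two-color Agilent arrays of a study of mouse hippocampus. A probe was counted as a member when its transcript accession or its description gave one of these symbols, or when a probe without a symbol was described as the same subunit. This gave 13 of the 41174 probes of the array, for 7 of the 17551 genes that could be named. The study compared 5 wild-type (WT) male C57/BL6j mice with 5 transgenic (TG) male mice on a C57/BL6j background that overexpress DCLK-short (DLCK in the sample labels), a splice variant of doublecortin-like kinase that leaves the kinase constitutively active. All mice were housed singly for 7 days before tissue was taken, and each array measured 1 WT and 1 TG mouse together. Every mouse was on 2 arrays, once labelled with Cy3 and once with Cy5, so that 10 arrays held 5 pairings in each dye orientation. The promoter that drives the transgene and the age of the mice were not given in the sources used here.

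GABA-A receptors are chloride channels opened by the transmitter GABA, and they carry most of the fast inhibition in the brain. Each channel is a ring of subunits in which α and β subunits form the GABA binding sites, and a γ or δ subunit sets where the channel sits and how it responds to drugs. In the hippocampus, α2 is known for synapses on the axon initial segment of pyramidal cells, α5 for the tonic inhibition of pyramidal cells, and α4 with δ for the tonic inhibition of dentate granule cells. The tissue was whole hippocampus, so fewer cells that carry a subunit and less of its RNA per cell cannot be told apart.

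An array is named below by its Cy3 mouse and then its Cy5 mouse, so that WT1/TG4 held mouse WT1 in Cy3 and mouse TG4 in Cy5. Ratios are log2 of TG over WT in the direction of the sample labels. This direction is opposite to the one that the study describes. For Gabra2 the study reports less RNA in the TG mice on each of its platforms, Agilent among them, and by quantitative RT-PCR. The values themselves also left the labels in doubt. Tmem254a, a transmembrane protein gene, had higher signals in the 5 TG mice on the one-color ABI arrays (24258.1 to 30367.37) than in 5 WT mice (6999.56 to 10674.88). The ratio of means was 2.99 (exact permutation test, two-sided, p = 0.00794). By the labels, the WT mice were WT1 to WT5 on ABI but WT1, WT3, WT4, WT5 and WT6 on Agilent. On the Agilent arrays the log2 ratio of Tmem254a as labelled was -0.99 ± 0.0491 (SE over 10 arrays). It was negative on all 10 arrays (limma, false discovery rate, FDR, 1.02e-05). After the mean of each dye orientation was taken off, 6 pairs of arrays that share a mouse only as labelled had a mean correlation of -0.14 across 33793 probes. The 6 pairs that share a mouse only when the 5 arrays with WT in Cy3 trade labels with the 5 with TG in Cy3 had a mean correlation of 0.18, and 9 pairs that share none either way had -0.19. The ranges overlapped, from -0.54 to 0.08, -0.29 to 0.50 and -0.48 to 0.14 in this order, and the pairs are not independent. In each set the lowest pair held WT1/TG4 or TG4/WT3. Under that exchange every log2 ratio below keeps its size and turns its sign. The 4 probes of Dclk1, the gene of the transgene, had ratios from -0.08 to -0.06 (FDR 0.492 to 0.729), so they gave no check of the labels.

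Gabra2 stood apart from the other 6 subunits. Its 3 probes passed an FDR of 0.1 with log2 ratios of 1.05 to 1.26, and the other 10 member probes did not pass. Over all 41174 probes, 7.41% passed, 3.66% with a positive and 3.76% with a negative ratio as labelled. Under the exchange the latter share is the one to set beside Gabra2. The ratio of Gabra2 probe A_51_P417507 was the largest in size of all probes, which ran from -1.15 to 1.26 as labelled, so under the exchange it is the lowest.

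The 3 Gabra2 probes lie on the minus strand of chromosome 5, in the coordinates of the array files, which name no genome build. Probe A_51_P417507 (chr5:69742463-69742522) is the most 5′ of them and was designed on a RefSeq transcript. Probe A_52_P446146 (chr5:69740502-69740561) lies 1961 bases downstream and A_52_P336171 (chr5:69739692-69739751) 810 bases further, both designed on cDNA clones of the subunit. The files do not state the exon or untranslated region of a probe.

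Of the 3 Gabra2 probes, A_52_P336171 had the ratio with the smallest error. Its log2 TG over WT was 1.19, 1.05, 0.89, 1.31 and 0.96 on WT1/TG4, WT3/TG5, WT4/TG2, WT5/TG3 and WT6/TG1, and 1.12, 1.64, 1.21, 0.85 and 1.03 on TG1/WT5, TG2/WT1, TG3/WT4, TG4/WT3 and TG5/WT6. The 10 arrays thus lay within a narrow band above 0, and TG2/WT1 was the highest. The mean was 1.12 ± 0.0667 (SE over 10 arrays), a 2.18-fold ratio, with an FDR of 3.76e-05 in limma, rank 2 of all probes. Before normalization the mean pixel intensity was 271 to 591 (median 423) in the WT channel and 597 to 1892 (median 988) in the TG channel.

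Probe A_52_P446146 varied more between arrays. Its log2 ratio was 0.54, 1.296, 1.20, 1.23 and 0.76 on the arrays with WT in Cy3, in the same order, and 0.48 to 1.58 on the arrays with TG in Cy3, where it was 0.94, 1.58, 1.42, 0.48 and 1.07. The arrays of the mouse labelled TG4 were the lowest in both orientations. The mean was 1.05 ± 0.104 (SE over 10 arrays; limma FDR 0.00199), a 2.07-fold ratio. The WT channel read 318 to 655 (median 411) and the TG channel 679 to 2148 (median 944).

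Probe A_51_P417507 had the largest mean and the largest spread of the 3. Its log2 ratio was 0.35, 0.53, 1.41, 2.00 and 2.33 with WT in Cy3, and 1.78, 2.31, 0.68, 0.11 and 1.07 with TG in Cy3. The SD over arrays was 0.83, against 0.37 for A_52_P446146 and 0.23 for A_52_P336171. The mean was 1.26 ± 0.232 (SE over 10 arrays; limma FDR 0.0223), a 2.39-fold ratio. Without both arrays of mouse WT4 (log2 ratio 1.31, limma FDR 0.108) or of mouse WT5 (log2 ratio 1.1, limma FDR 0.102) the probe no longer passed, while the calls over all probes fell from 3053 to 282 and to 827. On WT1/TG4 the channels read 549 for WT and 541 for TG before normalization, and on WT6/TG1 they read 210 and 2059.

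**Figure D1:**
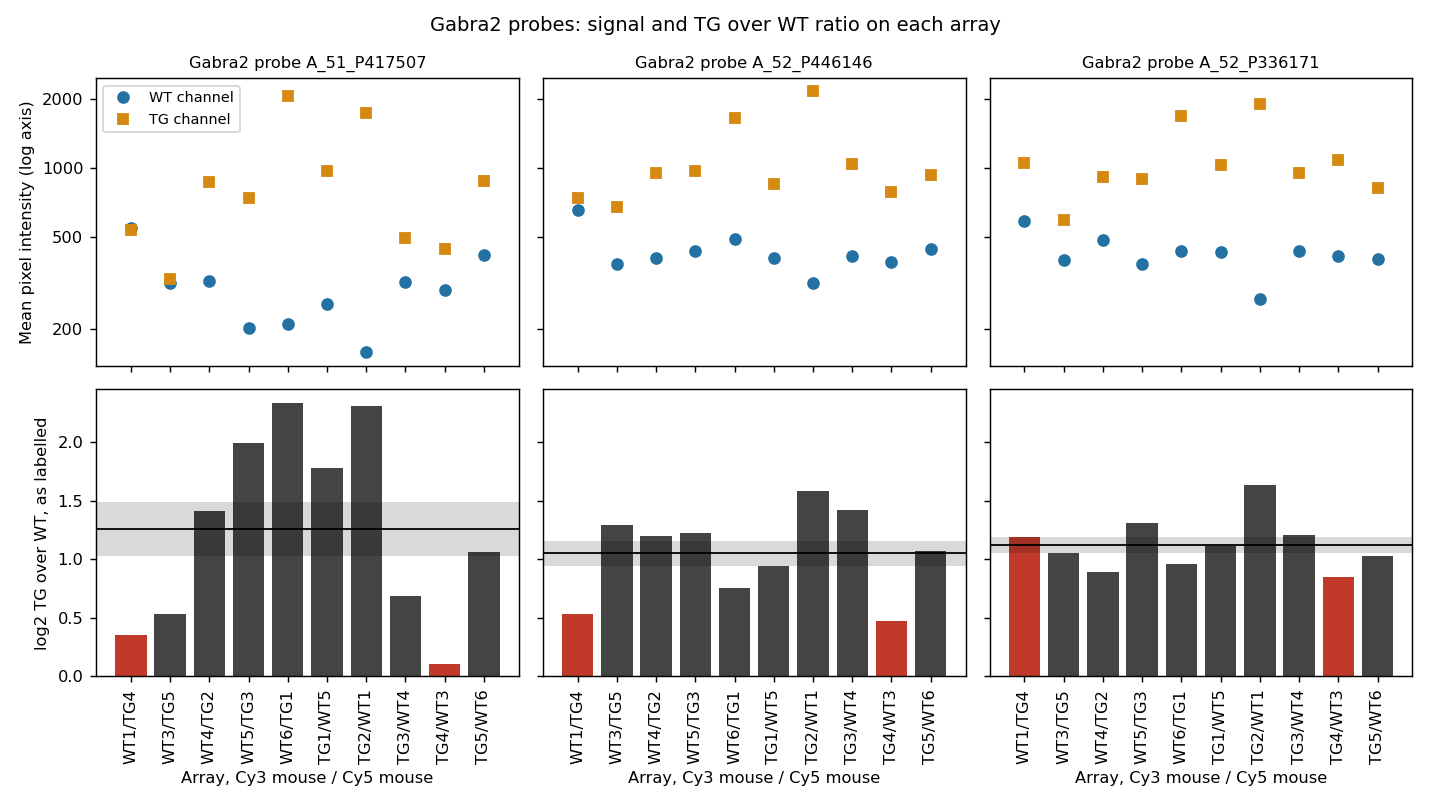
The upper row plots the mean pixel intensity of each Gabra2 probe in the WT (circles) and TG (squares) channel of each array on a log axis, before normalization; the lower row plots log2 TG over WT as labelled after normalization, with the mean (line) and its SE (grey band). Red bars are the 2 arrays of the mouse labelled TG4. All bars are above 0; the bars of A_52_P336171 lie between 0.85 and 1.64 and those of A_51_P417507 between 0.11 and 2.33.

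With each mouse taken as the mean of its Cy3 and Cy5 signal, the WT and TG mice did not overlap in any of the 3 probes. Levels of A_52_P336171, in log2 intensity, were 8.69, 8.86, 8.98, 8.82 and 8.67 in WT1, WT3, WT4, WT5 and WT6 and 9.82, 10.15, 10.05, 9.90 and 9.72 in TG1 to TG5. Levels of A_52_P446146 were 8.87, 8.80, 8.81, 8.87 and 8.82 in the same WT mice and 9.66, 10.25, 10.18, 9.41 and 9.91 in the TG mice. The WT mice were nearly alike there (SD 0.0335, n = 5), and the TG mice spread over a wider range (SD 0.35, n = 5).

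Levels of A_51_P417507 were 8.24, 8.42, 8.45, 7.97 and 8.18 in the WT mice and 9.93, 10.05, 9.44, 8.80 and 9.32 in the TG mice. Mouse TG4 was closest to the WT mice in this probe and in A_52_P446146, but not in A_52_P336171. Each probe had an exact permutation p of 0.00794 (two-sided, over all assignments of the 10 mice to 5 and 5, not adjusted), the smallest that 5 against 5 mice can give. Levels that do not overlap were found in 2.09% of all probes. In limma over the 10 mice, where 0.0583% of all probes passed, A_52_P336171 (FDR 0.00307) and A_52_P446146 (FDR 0.0553) passed and A_51_P417507 (FDR 0.141) did not. With 1 mouse left out, A_52_P446146 passed only without TG2 (FDR 0.0957) or TG4 (FDR 0.00872), and A_51_P417507 only without TG4 (FDR 0.0232). With the labels exchanged as above, the mice regroup, and the levels of the 3 probes again did not overlap, with the mice then called WT the higher ones.

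The 3 Gabra2 probes had ratios of one sign on all 10 arrays, as had 2.11% of all probes. In size they went together only loosely over the arrays. The correlation of A_51_P417507 was 0.39 with A_52_P446146 and 0.43 with A_52_P336171, and that of the latter pair was 0.59 (Pearson r, 10 arrays that share mice pairwise, as a description). Without the 2 arrays of the mouse labelled TG4 these values were -0.26, 0.37 and 0.69. In the order of likeness to a Gabra2 probe, the best rank of another Gabra2 probe was 1402 of 41173. Outside the subunits, the probe most like A_51_P417507 was one for Sltm (r = 0.99), which encodes a nuclear RNA-binding protein, with a mean log2 ratio of 0.17 (limma FDR 0.531). The probe most like A_52_P446146 was one for the provisional gene LOC547320 (r = 0.96), followed by AI987944 (r = 0.96), with mean ratios of -0.41 and -0.48. For A_52_P336171 the best match was a probe with no symbol (r = 0.95), and the next was one for the ubiquitin ligase gene Ube3a (r = 0.94; mean ratio 0.16). The remaining matches among the first 3 had no symbol. Outside the subunits, r was above 0.9 in 241 probes for A_51_P417507, 122 for A_52_P446146 and 8 for A_52_P336171. A high r over 10 arrays therefore does not single out a gene.

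**Figure D2:**
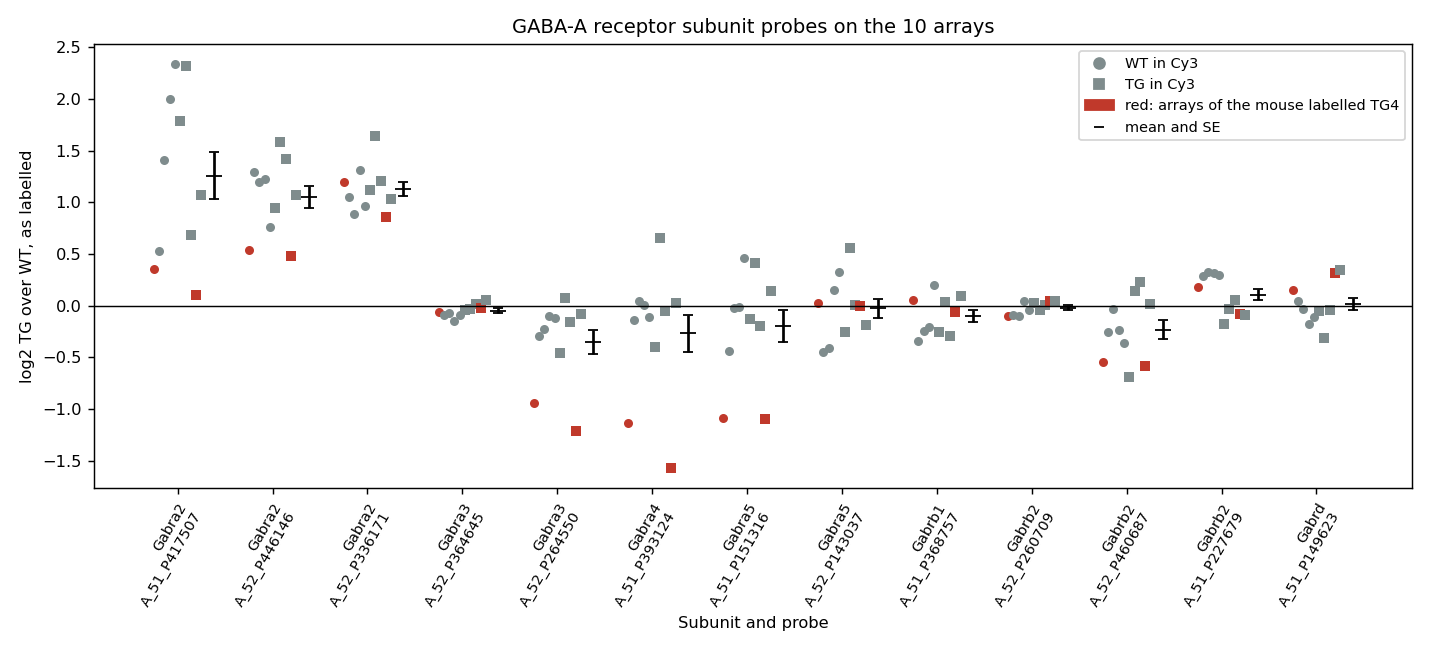
Log2 TG over WT as labelled of the 13 member probes on each of the 10 arrays, with the mean and SE beside them; circles have WT in Cy3, squares TG in Cy3, and red marks are the 2 arrays of the mouse labelled TG4. The 3 Gabra2 probes are above 0 on every array, and the red marks lie at or below -0.94 in Gabra4, in 1 of 2 Gabra3 probes and in 1 of 2 Gabra5 probes.

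Of the other α subunits, Gabra3 had probes that read differently. Probe A_52_P264550 (chrX:67094474-67094533, minus strand) had a log2 ratio of -0.35 ± 0.116 (SE over 10 arrays; limma FDR 0.119), negative on 9 of 10 arrays. Its values were -0.94, -0.29, -0.23, -0.10 and -0.12 with WT in Cy3 and -0.46, 0.07, -0.16, -1.22 and -0.08 with TG in Cy3. The 2 lowest were the arrays of the mouse labelled TG4, and the other 8 lay between -0.46 and 0.07. Mouse levels were 7.75 to 8.07 in WT and 6.73 to 7.82 in TG, which overlap (exact permutation p = 0.0635). The other Gabra3 probe, A_52_P364645 (chrX:67161864-67161923), 67390 bases upstream on the genome, read 51.3 to 107.4 before normalization, against a 95th percentile of 40.0 to 80.2 in the negative control spots, with a log2 ratio of -0.05 ± 0.0232 (limma FDR 0.286). When both probes were averaged before the fit, Gabra3 passed (log2 ratio -0.20 ± 0.0597, limma FDR 0.0848), as did 2828 of 34549 genes or unnamed probes. That average joins a probe near the negative controls with one that was lowest on the arrays of the mouse labelled TG4. Whether it passed without those arrays was not tested.

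Gabra4 encodes α4, and its probe A_51_P393124 (chr5:70350952-70351011, minus strand) had a log2 ratio of -0.27 ± 0.179 (SE over 10 arrays; limma FDR 0.484). The values were -1.13, -0.14, 0.04, 0.00 and -0.11 with WT in Cy3 and -0.40, 0.65, -0.05, -1.57 and 0.03 with TG in Cy3. On the 8 arrays without the mouse labelled TG4 the mean was 0.0038. The WT mice had levels of 8.62 to 9.02, and 4 TG mice had 8.71 to 9.03, while TG4 had 7.55.

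Of the Gabra5 probes, 1 of 2 was low on the arrays of the mouse labelled TG4. Probe A_51_P151316 (chr7:51761733-51761792, minus strand) had a log2 ratio of -0.20 ± 0.153 (limma FDR 0.564), with -1.08 and -1.10 on the arrays of the mouse labelled TG4 and -0.44 to 0.46 on the other 8. Probe A_52_P143037 (chr7:51680505-51680564), 81228 bases downstream on the genome, had -0.03 ± 0.0904 (limma FDR 0.939), with 0.02 and -0.01 on those 2 arrays. On the 8 remaining arrays the Gabra5 probes moved together (r = 0.78), against 0.34 on all 10. The scanner flagged A_52_P143037 as an outlier on 3 arrays.

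**Figure D3:**
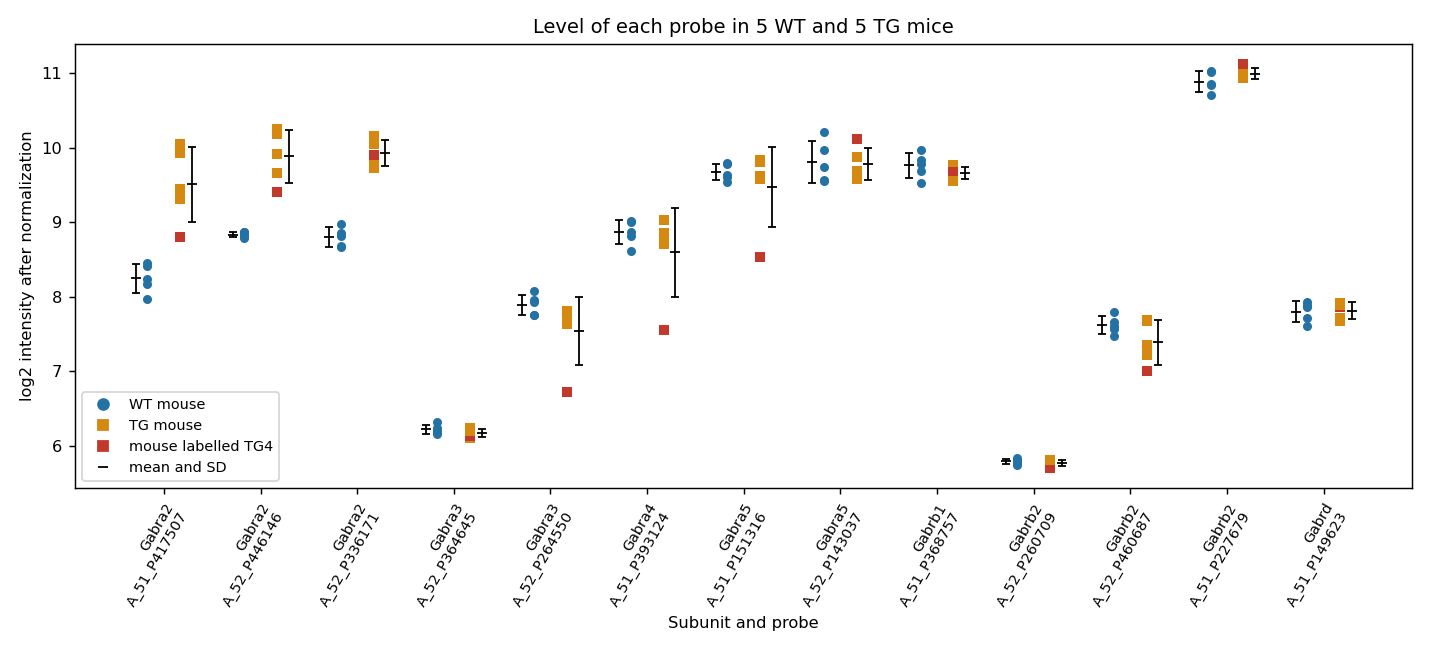
Log2 intensity of each member probe in 5 WT (circles) and 5 TG (squares) mice after normalization, with mean and SD; each mouse is the mean of its Cy3 and Cy5 signal, and the mouse labelled TG4 is red. WT and TG mice separate in the 3 Gabra2 probes and overlap in the other 10; heights of different probes are not comparable.

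The β subunits did not pass over the 10 arrays. Gabrb1 probe A_51_P368757 (chr5:70918054-70918113, plus strand) had a log2 ratio of -0.10 ± 0.0562 (SE over 10 arrays; limma FDR 0.366), with a lowest value of -0.34, a median of -0.13 and a highest of 0.20. It read 0.05 and -0.06 on the arrays of the mouse labelled TG4, unlike Gabra4, its neighbour on chromosome 5.

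Gabrb2 had 3 probes on the plus strand of chromosome 11, and they did not agree in sign. Probe A_52_P460687 (chr11:42381530-42381589) had a ratio of -0.23 ± 0.0899 (limma FDR 0.183), negative on 7 of 10 arrays. This probe passed with the WT mouse as random block (-0.23, limma FDR 0.096), where 5969 of all 41174 probes passed. The correlation within that block was negative (-0.25), and the SE was smaller (0.0795). On the 8 arrays of the first scan session alone it also passed (-0.34, limma FDR 0.0717), where 2313 of all probes did. Probe A_51_P227679 (chr11:42385118-42385177), 3588 bases downstream and named through an older symbol in its description, had 0.11 ± 0.0571 (limma FDR 0.352). Probe A_52_P260709 (chr11:42284056-42284115) was not well above background on any array by the scanner's flag, and it was the single member probe that did not exceed the negative controls in both channels of all arrays. Its ratio was -0.02 ± 0.0236.

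In Gabrb2 probe A_51_P227679 the ratio went with the dye. The values were 0.18, 0.29, 0.32, 0.31 and 0.29 with WT in Cy3 and -0.18, -0.03, 0.06, -0.08 and -0.09 with TG in Cy3, so the orientations did not overlap. Their means were 0.28 ± 0.058 (SD, n = 5) and -0.07 ± 0.0872 (SD, n = 5). With dye orientation as a term the probe passed at an unchanged mean of 0.11 (limma FDR 0.0461). In that fit 3755 of all probes passed, against 3053 without the term. The scanner flagged it as an outlier on 4 arrays, and without the flagged spots the ratio was 0.08 ± 0.0786 (limma FDR 0.705).

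Gabrd, the δ subunit of tonic inhibition in dentate granule cells, did not pass. Its probe A_51_P149623 (chr4:153877417-153877475, minus strand) had a log2 ratio of 0.01 ± 0.0601 (SE over 10 arrays; limma FDR 0.951), with a lowest value of -0.31, a median of -0.04 and a highest of 0.34. The arrays of the mouse labelled TG4 read 0.15 and 0.31, so Gabrd did not share the low values that its partner Gabra4 had there. The exact permutation p-values of the 10 probes outside Gabra2 ran from 0.0635 to 0.881.

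Whether probes of one subunit differed in their ratio was tested for 8 pairs over the 10 mice. No pair passed after adjustment over the 8 pairs (exact permutation test, two-sided, adjusted p 0.317 to 0.81); at an unadjusted exact p under 0.05 the count was also 0. For Gabra2 the differences were 0.21 ± 0.241 (A_51_P417507 less A_52_P446146), 0.13 ± 0.239 (A_51_P417507 less A_52_P336171) and -0.07 ± 0.0942 (A_52_P446146 less A_52_P336171), each with its SE over 10 arrays. The former pair of differences ranged from -0.76 to 1.58 and from -0.84 to 1.37 between arrays, so the missed threshold does not show that these probes act alike. The smallest unadjusted values were those of Gabrb2 probes A_52_P460687 and A_51_P227679 (difference -0.34 ± 0.111, exact permutation p = 0.0556) and of the Gabra3 probes (0.30 ± 0.132, exact permutation p = 0.0794). An exact sign-flip test over the 10 arrays gave 0.0176 and 0.0156 for these pairs, but arrays that share a mouse are not independent.

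**Figure D4:**
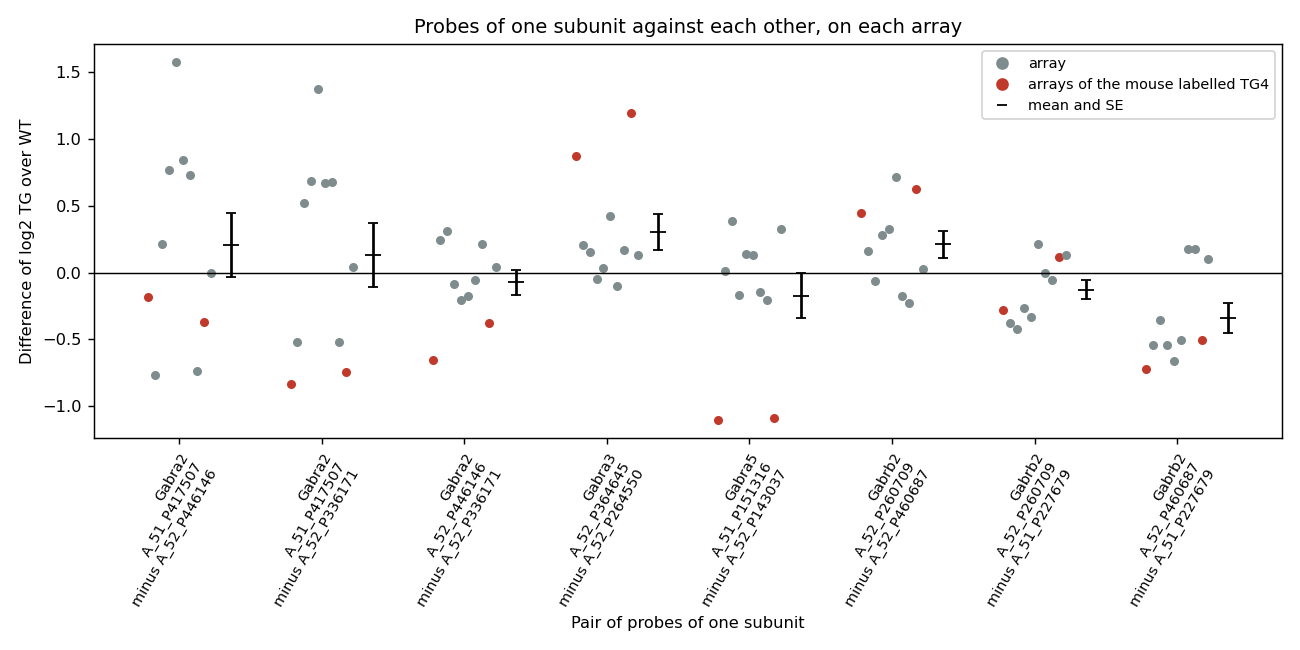
Difference of log2 TG over WT between 2 probes of the same subunit on each array (points), with the mean and SE; red points are the 2 arrays of the mouse labelled TG4. The differences of Gabra3 and Gabra5 are widest on the red arrays, and those of A_51_P417507 against the other Gabra2 probes spread on all arrays.

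Low ratios on WT1/TG4 and TG4/WT3 ran through part of the member probes. These arrays share mouse TG4 as labelled, and they also share a mouse, WT5, after the exchange. The mean on them, against that on the other 8 arrays, was -1.35 against 0.0038 for Gabra4, -1.09 against 0.03 for Gabra5 probe A_51_P151316 and -1.08 against -0.17 for Gabra3 probe A_52_P264550. Within Gabra2 it was 0.23 against 1.52 for the most 5′ probe A_51_P417507, 0.51 against 1.19 for A_52_P446146 and 1.02 against 1.15 for the most 3′ probe A_52_P336171. On these arrays the Gabra2 ratio was thus lowest at the 5′ probe and highest at the 3′ probe. The low Gabra5 probe was the upstream one of its pair, and the low Gabra3 probe was the downstream one. The upstream Gabra3 probe A_52_P364645 read near the negative controls (-0.04 on these arrays against -0.05 on the other 8). This pair therefore cannot show whether the Gabra3 ratio differed along the gene.

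Whole arrays were shifted too. In 3367 RefSeq transcripts with present probes at least 500 bases apart on the genome, the median log2 ratio of the 5′ probe less that of the 3′ probe was -0.19 on WT1/TG4 and -0.16 on TG4/WT3, and -0.05 to 0.08 on the other 8 arrays. The SD of the log2 ratio over all probes was 0.32 and 0.38 on those 2 arrays and 0.14 to 0.23 on the others. Of the lists of cell type markers, the 4 oligodendrocyte markers (8 probes) had the lowest median ratios there, -0.58 and -0.52. Markers of choroid plexus read -0.39 and -0.13, and those of dentate granule cells -0.19 and -0.13. The remaining lists read -0.10 to 0.05 on these arrays. The part of these shifts in the ratios of the subunits was not tested. Without both arrays the 3 Gabra2 probes passed with log2 ratios of 1.52 ± 0.207, 1.19 ± 0.0797 and 1.15 ± 0.0729 (SE over 8 arrays, limma FDR 0.0154, 0.000282 and 0.000282, from 5′ to 3′), and no other member probe passed. In that fit 2016 of all probes passed, against 3053 on all 10 arrays.

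**Figure D5:**
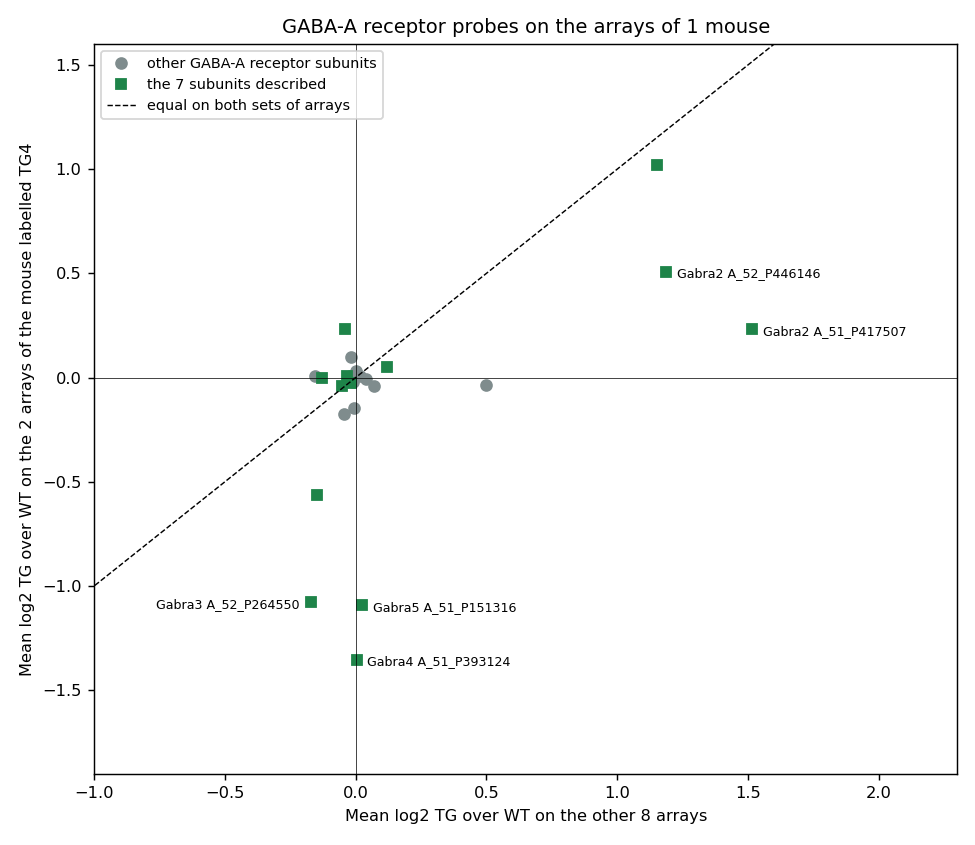
Mean log2 TG over WT on the 2 arrays of the mouse labelled TG4 (y axis) against the mean on the other 8 arrays (x axis) for the member probes (squares) and 11 probes of other GABA-A receptor subunits (circles); probes more than 0.6 apart are named, and the dashed line marks equal values. Gabra4, Gabra3 A_52_P264550 and Gabra5 A_51_P151316 lie between -1.35 and -1.08 on the y axis and between -0.17 and 0.03 on the x axis.

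Part of the other GABA-A receptor subunits was read in the same fit, 11 probes of 8 genes (Gabra6, Gabre, Gabrg1, Gabrg3, Gabrp, Gabrq, Gabrr1 and Gabrr2), which do not stand for the whole family. Their log2 ratios ran from -0.12 (Gabrg1 A_51_P396883, limma FDR 0.118) to 0.39 (Gabra6 A_51_P198335, limma FDR 0.271), with a median of 0.0064. The value of Gabra6 rested in part on TG5/WT6, which read 1.63, and without that array its mean was 0.25. The median over all 41174 probes was 0.0023, and 1505 of them passed with a positive and 1548 with a negative ratio. On the arrays of the mouse labelled TG4 these 11 probes read -0.18 to 0.10, without the low values that Gabra4 had there.

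Genes that cluster and move the receptors had 21 probes for 13 of 16 genes. In this list 1 of 21 probes passed, where 7.41% of all probes did, and the median was 0.02. That probe, of the trafficking protein gene Gabarapl1, had a negative ratio (A_52_P633410, -0.19 ± 0.0563, limma FDR 0.0923). The other Gabarapl1 probe, A_51_P304757, had -0.54 ± 0.243 (limma FDR 0.258). Its mean was -2.14 on the arrays of the mouse labelled TG4 and -0.14 on the other 8. The genes around Gabra2 on chromosome 5 had 22 probes for 15 of 17 genes, with a median ratio of -0.002. There 1 of 22 probes passed, again beside 7.41% of all probes. That probe, of the mitochondrial translation GTPase gene Guf1, had a negative ratio (A_52_P149502, -0.11 ± 0.0263, limma FDR 0.0529). The other Guf1 probe, A_51_P228208, had -0.11 ± 0.0339 (limma FDR 0.104). Gabrg1, Gabra4 and Gabrb1, the receptor genes of the same cluster, had no probe that passed. Of the GABA-B receptor genes, Gabbr1 had 2 probes, at -0.03 and 0.08, and neither passed. On the 8 arrays without the mouse labelled TG4, Gabarapl1 A_52_P633410 (-0.19, limma FDR 0.179) and Guf1 A_52_P149502 (-0.11, limma FDR 0.107) no longer passed at nearly the same ratios. The calls over all probes fell there from 3053 to 2016. No probe of these lists passed without WT3/TG5, WT4/TG2, TG1/WT5 or TG4/WT3, against 2 on all 10 arrays. The calls over all probes then fell to 1219, 1207, 1117 and 1670. The ratios stayed at -0.19 to -0.15 for Gabarapl1 A_52_P633410 and -0.11 to -0.10 for Guf1 A_52_P149502. Of the 54 probes of these lists, 12 to 14 had an unadjusted limma p under 0.05 there. The share of all probes under that limit was not taken there, so the count shows neither an excess nor the lack of one. On all 10 arrays, where 3053 probes passed, an unadjusted limma p of 0.0582 stood at rank 8372 of 41174 probes. That rank belongs to another fit and is no measure for these counts.

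Markers of the cell types of the tissue were read in the same fit, where 7.41% of all probes passed. Of 5 astrocyte probes 2 passed with a positive ratio, and the summed level of the probes was 2960 to 3470 in WT and 3392 to 4231 in TG mice. Of 8 oligodendrocyte probes 2 passed with a negative ratio (summed level 25878.5 to 35714 in WT and 20164 to 27414 in TG mice). One probe each passed among 7 of GABAergic interneurons (positive), 7 of microglia (positive) and 8 of dentate granule cells (negative), and none among 4 of CA pyramidal cells, 6 of choroid plexus and 5 of thalamus. Signals counted as present were found in 7 of 8 probes of granule cells and 4 of 4 of CA pyramidal cells. The same held for 6 of 6 probes of choroid plexus and 5 of 5 of thalamus. As 33793 of all 41174 probes were present, presence does not tell the tissue. The part of cell makeup in the ratios of the subunits was not tested. All arrays were scanned on 1 day, 8 in a first session and TG2/WT1 and TG3/WT4 in a second; the Gabra2 ratios, from 5′ to 3′, were 1.20, 0.94 and 1.05 in the first and 1.499, 1.501 and 1.423 in the second.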

How the data were processed

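RNA of single mice was amplified and dye-coupled by the authors. Per the file headers, the authors read mean and median pixel intensities with Agilent Feature Extraction 8.5.1.1, and the deposited intensity values carry no normalization. The deposited log10 ratio of Cy5 over Cy3 was corrected and dye-normalized by the scanner software and entered an alternative alone. ABI intensities, as deposited by the authors without normalization, served for Tmem254a. Illumina values were not used here.

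After the log ratio model of the study's methods, mean intensities were loess-normalized within arrays in limma 3.58.1 (R 4.3.3) without background correction, control spots had weight 0, and log2 ratios of 41174 probes were fitted with an intercept (two-sided, Benjamini-Hochberg, FDR of 0.1). Each array entered as 1 observation. Mouse levels followed Aquantile normalization between arrays. A probe was present when its Cy3 and Cy5 signals on every array were above the 95th percentile of the array's 314 negative controls. The scripts were tested on simulated data. Named were all member probes, called genes of the lists, the highest and lowest further subunit (chosen after their values were seen), Dclk1, Tmem254a and the probes most like Gabra2. Some further receptor subunits are not reported here. Members and lists were chosen with earlier results of these data known. The number of arrays limits the precision.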

Additional observations from a re-analysis of the deposited data

Results flagged for a closer look

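Within the 5 WT or the 5 TG mice, 4 of 26 groups of levels had 1 mouse set far from the rest, where chance gives about 1 in 20 groups; the measure is the gap to the nearest mouse as a share of the whole range, with a limit of 0.71. All 4 were the mouse labelled TG4. It was lowest for Gabra3 probe A_52_P264550 (0.838), Gabra4 probe A_51_P393124 (0.783) and Gabra5 probe A_51_P151316 (0.804), with levels of 6.73, 7.55 and 8.53 against 7.64 to 7.82, 8.71 to 9.03 and 9.58 to 9.84 in the other TG mice. It was highest for Gabrb2 probe A_51_P227679 (0.724), with 11.12 against 10.93 to 10.98. The levels of TG4 rest on the same 2 arrays throughout, so the 4 values are not independent.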

How the results depend on the processing

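Under the alternatives run, the 3 Gabra2 probes kept their sign except under the exchange of labels, which turns every sign, and each passed over the 10 arrays except A_51_P417507 without both arrays of WT4 or of WT5. The count of member probes called over arrays was 3, 4 in several alternatives, 5 with the WT mouse as random block, and 2 to 4 when arrays or mice were left out; over all probes, 3053 calls became 1335 with median centring, 1769 with 1 ratio per WT mouse, 1203 at an FDR of 0.05, 5969 with the WT mouse as random block, and 282 to 3404 when arrays or mice were left out. Gabra3 probe A_52_P264550 passed in 6 alternatives, Gabrb2 probe A_52_P460687 in 2 and Gabrb2 probe A_51_P227679 in 1. For Gabra3 these included fits with more than 3053 calls over all probes. The calls were 3290 with log ratios scaled between arrays, 3347 with robust regression, 3564 with probes well above background and 4526 with the TG mouse as random block. For A_52_P460687 they were 5969 (WT mouse as random block) and 2313 (first scan session alone), and for A_51_P227679 3755 (dye orientation as a term). The correlation within the mouse blocks was negative, -0.25 for the WT mouse and -0.14 for the TG mouse. Calls added by these 2 fits therefore do not allow for shared mice in the usual way. Over mice, the limma count of 2 was 1 without Aquantile, and 1 to 3 when mice were left out. With the mouse number as replicate block it was 0 (3 at an unadjusted limma p under 0.05, all Gabra2, as without the block). That fit left 3 residual degrees of freedom, against 8 without the block, and called 0 of all probes. Deviations of same-numbered mice correlated at -0.25 to -0.10, and no mouse matched its own number best. Same-numbered mice were never on one array, and each best match was a mouse of a shared array. These values therefore cannot show whether the numbers pair the mice. Of the other lists, 2 called probes became 8 with the TG mouse as random block, where 4526 of all probes passed. With probes above negative controls the count was 5, where 3389 of 33793 passed. It was 0 to 4 when arrays were left out, where the calls over all probes ran from 1117 to 3404. The count of 0 different probe pairs held in the alternatives run, with a smallest adjusted p of 0.0703 in the exact sign-flip test.

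Ratios near 0 changed sign. Gabra5 A_52_P143037 was 0.0775 with median centring, 0.0101 with median pixels and 0.0064 without outlier spots, and -0.104 to 0.0482 with arrays or mice left out. Gabrb2 A_52_P260709 was 0.0401 in the scanner's ratio. With arrays or mice left out, Gabra4 ran from -0.421 to 0.0038, Gabra5 A_51_P151316 from -0.322 to 0.0258 and Gabrd from -0.041 to 0.0600; the causes were not tested. Blocks for slide or scan date were not run, as each slide held 1 array and all shared 1 day. The scan session, outlier and combined TG4 settings were chosen after seeing the data. Signal near background limits Gabra3 A_52_P364645 and Gabrb2 A_52_P260709.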
